A study of Mus musculus with 8 samples.

Results

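The cytosolic ribosomal protein genes were taken from the count tables by symbol: every row named Rpl or Rps followed by a number and an optional suffix, the 3 Rplp rows and Rpsa, without the Rps6k kinases and without rows marked as pseudogenes by "-ps". There were 93 such rows among 53507 rows that name a gene. Of these, 43 were proteins of the large subunit, 31 of the small subunit, 3 of the P stalk, 15 were paralogs or retrocopies (RNA copies inserted back into the genome) and 1, Rps19bp1, encodes a protein that binds a ribosomal protein without being part of the ribosome. The gene Fau, which encodes a ribosomal protein fused to a ubiquitin-like domain, does not match the naming and was not counted as a member.

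A ribosome reads messenger RNA and joins amino acids into protein. Its small subunit holds the mRNA and decodes it, its large subunit forms the peptide bond, and each contains one copy of most ribosomal proteins bound to ribosomal RNA. The proteins are needed in matched amounts, their mRNAs are among the most abundant in most cells, and many of these mRNAs begin with a cytosine and a run of pyrimidines, the TOP motif, through which mTORC1 and LARP1 control their translation. In the developing brain, dividing progenitors are known for high ribosome production, which declines as cells differentiate.

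RNA was sequenced from 8 libraries of mouse brain cells positive for tdTomato, a red fluorescent protein used to mark cells, which the labels name progenitor cells. There were 4 groups of 2 libraries: wild-type (wt) cells of embryonic day 13 (E13), wt cells of embryonic day 15 (E15), cells of postnatal day 12 (P12) from pups kept in normal air (normoxia), and P12 cells from pups held at 10 ± 0.5% oxygen between P3 and P11, a span of 8 days (hypoxia). Control and hypoxic mothers were swapped as foster mothers during the exposure, each library began from 400 pg of total RNA, and neither the transgene that drives tdTomato nor the number of animals behind a library is given in the sources used here. The p-values therefore measure the spread between these libraries, which may be technical.

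Gene rows held 36252027 to 47084796 counts per library, and a row with no count lies below 3 counts, or 0.0482 to 0.111 CPM (counts per mega-count of library size, scaled by TMM), a limit that covers counting error only. Between 11695 and 16468 genes reached 10 counts in a P12 library and between 17520 and 18318 in an embryonic one, and the TMM factors were 0.639 to 0.848 at P12 and 1.32 to 1.38 in the embryo. The cells also differed in type markers. The summed level of 13 progenitor markers was 510 to 982 CPM in the embryo and 4661 to 6359 CPM at P12, that of 9 neuron markers 2680 to 3140 and 267 to 686 CPM, and that of 7 astrocyte markers 10.8 to 40.2 and 7826 to 10300 CPM. Summed neuron markers thus exceeded progenitor markers in the embryonic libraries that are labelled progenitors, with Gad1 at 0 there. Of the P12 progenitor sum, Slc1a3 alone held 2412 to 3435 CPM, against 1.09 to 19.4 CPM in the embryo. In normoxia against the embryo 9 progenitor markers had positive log2 fold changes and 4 negative, among them Eomes (-2.10) and Neurog2 (-2.69). At P12 the 8 oligodendrocyte-lineage markers summed to 418 to 740 CPM in normoxia and 1675 to 2716 CPM in hypoxia, and 8 microglial markers to at most 88.1 CPM. Red blood cell markers reached 2238 to 7296 CPM at E13 and at most 85.5 CPM elsewhere. In these bulk libraries, fewer cells of a type and less RNA per cell cannot be told apart, and the part of the cell makeup in the differences between P12 and embryo was not tested.

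Most ribosomal protein mRNAs were lower at P12 than in the embryo, and 1 of them, Rps24, was far higher. All members together held 0.462% to 0.507% of the counts in gene rows in the embryonic libraries and 0.323% to 0.360% in the P12 libraries. Without Rps24 the share was 0.455% to 0.500% in the embryo and 0.154% to 0.174% at P12. The ratio of the P12 to the embryonic mean share was 0.701 with Rps24 and 0.343 without it, a setting added after the data had been seen. With either count, the 4 P12 libraries lay below the 4 embryonic libraries. These shares are raw, and the top 100 genes took 26.7% to 34.5% of P12 counts and 14.2% to 14.9% of embryonic counts. With the 100 most abundant other genes left out of the total, the ratio with Rps24 included was 0.862, to be set beside 0.701. That setting was not run without Rps24.

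**Figure D1:**
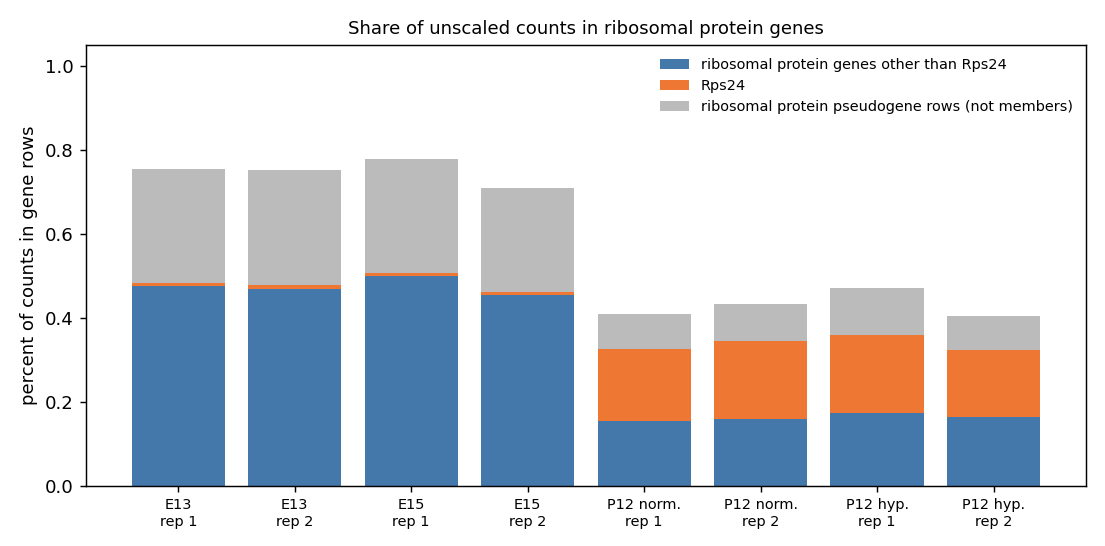
Percent of counts in gene rows (y axis, unscaled) held by ribosomal protein genes other than Rps24 (blue), Rps24 (orange) and the separate "-ps" pseudogene rows (grey) in each of the 8 libraries (x axis). The blue part lies between 0.154% and 0.174% in the P12 libraries and between 0.455% and 0.500% in the embryonic libraries, while Rps24 is visible as a large part of the bar only at P12.

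Rps24 is a small-subunit protein needed for an early step in trimming the precursor of the small-subunit ribosomal RNA. Its gene lies at chr14:24487125-24496959 on the plus strand of GRCm38 and has 12 annotated transcripts, 5 of them protein-coding, 5 processed and 2 with a retained intron. Its level was 49.96 and 54.1 CPM at E13 and 52.6 and 50.2 CPM at E15. At P12 it was 2493 and 2175 CPM in normoxia and 2354 and 2484 CPM in hypoxia. All 4 P12 libraries were alike and stood far above all 4 embryonic libraries. The log2 fold change against the embryo was 5.50 (SE 0.14, edgeR adjusted p = 0.000101) in normoxia and 5.55 (SE 0.14, edgeR adjusted p = 9.11e-05) in hypoxia, both against the mean of the same E13 and E15 libraries. Rps24 alone made up 49.2% to 53.5% of the summed member counts in P12 libraries and 1.41% to 1.57% in embryonic libraries. Among the 19936 genes that passed a low-count filter, it ranked 49th to 77th at P12 and 3575th to 4020th in the embryo.

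No other gene of the annotation overlaps Rps24. The neighbouring gene Polr3a, a subunit of RNA polymerase III, was at 5.37 and 8.73 CPM in normoxia, 0 and 25.6 CPM in hypoxia and 21.8 to 49.5 CPM in the embryo. The pseudogene row Rps24-ps3 was at 12.4 to 14.2 CPM in the embryo and 13.7 to 45.6 CPM at P12, and Rps24-ps2 was below 1 CPM in every library. Rps24 itself rested on 66750 to 78508 counts per library at P12 and on 2793 to 3121 in the embryo. The annotated exons of Rps24 cover 6256 bases because they include retained introns and a last exon of 1185 bases, so its level per kilobase is small beside its CPM. The files hold counts per gene, and which transcript carried the reads was not analysed here.

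The start of the mRNA was examined because the TOP motif lies there. RefSeq windows of 30 bases around annotated starts on GRCm38.p6, from 15 bases before the first base of the mRNA to 15 bases into it, were found for 68 of the 93 members, 80 windows in all. A C at the first base followed by 4 pyrimidines (C or T) was present in 15 of these 80 windows (18.8%) and in 823 of 32851 windows of all genes (2.51%). A run of at least 8 pyrimidines between 10 bases before and 15 bases after the start was present in 24 (30%) and in 3119 (9.49%). The strand of the mRNA was searched, and a window can meet both criteria. The windows of Rps24 (chr14:24490663-24490692, plus strand), Rps9 (chr7:3704026-3704055, plus), Rps28 (chr17:33824548-33824577, minus), Rps7 (chr12:28635939-28635968, minus), Rps6 (chr4:86857353-86857382, minus) and Rpl27a (chr7:109519180-109519209, plus) are shown because they set the gene that rose most beside genes that fell, one that did not pass the test and one that rose in hypoxic P12 cells. Capitals mark the longest pyrimidine run from 10 bases before the start.
Rps24: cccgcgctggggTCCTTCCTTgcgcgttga
Rps9: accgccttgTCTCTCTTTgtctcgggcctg
Rps28: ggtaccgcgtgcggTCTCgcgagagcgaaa
Rps7: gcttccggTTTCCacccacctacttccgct
Rps6: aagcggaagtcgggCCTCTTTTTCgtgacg
Rpl27a: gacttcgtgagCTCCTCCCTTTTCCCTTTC
Runs of 8 or more pyrimidines were found in the window shown for Rps24, which rose, in Rps9, which fell, in Rps6, which did not pass, and in Rpl27a. Of the windows shown, only that of Rps6 had a C at the first base followed by 4 pyrimidines. A second annotated start of Rps24 (chr14:24490738-24490767) had neither that motif nor a run of 8 pyrimidines. The windows of Rps28 and Rps7 held shorter runs, which says only that no run of that length is within these bases.

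Of the 93 members, 89 passed the low-count filter and were tested among 19936 genes with edgeR's quasi-likelihood test over all 8 libraries, with Benjamini-Hochberg adjustment over all tested genes. The rows left out were Rpl10l, Rpl39l and Rps12l1, with 0 counts in every library, and Rpl3l. Rpl10l and Rpl39l are known from testis and Rpl3l from muscle. Rpl3l was at 0.125 CPM in E13 replicate 1, at 0.0318 CPM in normoxia replicate 1 and at 0 elsewhere, which is around the level of the 3-count limit. In the embryo the median member was at 25.7 to 28.1 CPM per library and at P12 at 13.5 to 16.04 CPM. Summed over members without Rps24, the level was 3398 to 3657 CPM in the embryo and 1890 to 2567 CPM at P12.

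**Figure D2:**
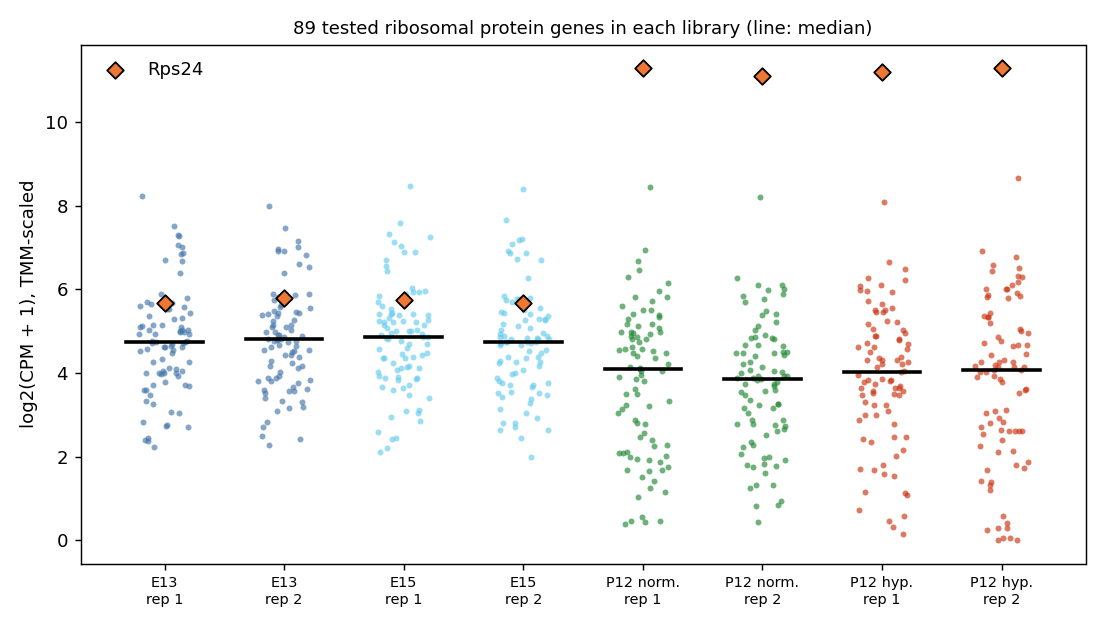
Level of the 89 tested members as log2(CPM + 1) on the y axis in each of the 8 libraries on the x axis, with 1 point per gene, a black line at the median and Rps24 as an orange diamond. The embryonic columns are alike, the P12 columns reach lower and spread more widely, and Rps24 moves from within the upper part of the embryonic columns (49.96 to 54.1 CPM) to far above all other members at P12 (2175 to 2493 CPM).

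In normoxic P12 cells against the embryo, 8 of 89 members (8.99%) fell, where 5.68% of all tested genes fell. Another 2 (2.25%), Rps24 and Rps3a3, rose, where 12.1% of all tested genes rose. The median log2 fold change was -1.07 over the members and -0.04 over all tested genes, and 74 of 89 members were negative. Both libraries lay below all 4 embryonic libraries for 57 members (64%), against 32.1% of all genes, and above them for 5 members (5.62%), against 27.3%. The calls other than Rps24 depend on the embryonic libraries: with any 1 of the 4 left out, Rps24 was the 1 member called. DESeq2 called 5 higher and 34 lower, where it called 36.4% of all genes.

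Rps29, Rps7, Rps9 and Rps28 were among the members with the smallest p of those that fell. Rps29, a small zinc-binding protein of the small subunit, was at 21.1 to 22.9 CPM in the 4 embryonic libraries and at 2.83 and 2.54 CPM in normoxia, a log2 fold change of -3.03 (SE 0.68, edgeR adjusted p = 0.0333). Rps28, another small protein of that subunit's head, was at 16.3 to 20.6 CPM in the embryo and at 2.98 and 1.499 CPM in normoxia (log2 fold change -2.98, SE 0.73, edgeR adjusted p = 0.0422). Rps7, which takes part in maturation of small-subunit RNA, was at 15.5 to 20.9 CPM and at 2.19 and 2.93 CPM (log2 fold change -2.84, SE 0.64, edgeR adjusted p = 0.0342). In all 3 genes both normoxic libraries lay several-fold below every embryonic library. Rps9, which lines the mRNA entry and contributes to decoding accuracy, fell by 1.25 on the log2 scale (SE 0.28, edgeR adjusted p = 0.0345), from 120.1 to 138.5 CPM in the embryo to 47.5 and 62.3 CPM. Rpl37a and Rpl8 of the large subunit were also called, with log2 fold changes of -2.71 and -1.73.

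In hypoxic P12 cells, compared with the same embryonic libraries, 12 members (13.5%) fell and 3 (3.37%) rose, where 12.9% of all tested genes fell and 13.2% rose. The share that fell was thus near that of all genes. The median log2 fold change was -0.73 over members and -0.43 over all genes, and 65 of 89 were negative. With relative log expression scaling the medians were -0.52 and -0.22, and the split became 5 higher and 5 lower. The order of the 2 medians turned when hypoxia replicate 1 was left out (-0.90 and -1.68) and when hypoxia replicate 2 was left out (-0.83 and -0.995). Libraries did not overlap for 53 members that were lower (59.6%, against 36.3% of all genes) and 7 that were higher (7.87%, against 21.3%). The lower count was 43 with relative log expression scaling (33.9% of all genes) and 74 when scaled by library size alone (48% of all genes). Again each single embryonic library left out reduced the calls to Rps24 alone.

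Rps20, part of the head of the small subunit, was at 25.3 to 34.4 CPM in the embryo and at 1.21 and 2.29 CPM in hypoxia (log2 fold change -4.08, SE 0.98, edgeR adjusted p = 0.031). Its normoxic libraries, at 19.4 and 3.85 CPM, lay between. Rpl29 fell by 2.58 on the log2 scale (SE 0.62, edgeR adjusted p = 0.0317), Rps29 by 2.65 (SE 0.66, edgeR adjusted p = 0.0344) and Rps28 by 2.75 (SE 0.72, edgeR adjusted p = 0.0394). Others that fell were Rpl21, Rpl3, Rpl32, Rpl32l, Rps3 and Rps3a1. Rps3 sits at the mRNA entry and also acts in DNA repair. It was at 174.3 to 201.9 CPM in the embryo and at 76.2 and 68.2 CPM in hypoxia. Rpl27a of the large subunit rose by 1.68 (SE 0.47, edgeR adjusted p = 0.0462), from 13.1 to 15.8 CPM to 34.9 and 55.6 CPM.

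With both P12 groups together, all 4 P12 libraries lay below all 4 embryonic libraries in 44 of 89 members (49.4%), against 22.8% of all tested genes. With relative log expression scaling the count was 36 members against 21.2% of all genes, and scaled by library size alone 71 members against 36.3%. The P12 libraries lay above in 5 members (5.62%), against 15.5% of all genes: Rps24, Rps3a3, Rpl27a, Rpl5 and Rps19bp1. Rpl5, which carries a small ribosomal RNA into the large subunit and can bind the p53 regulator Mdm2, was at 25.4 to 32.9 CPM in the embryo, at 70.6 and 67.9 CPM in normoxia and at 61.4 and 56.0 CPM in hypoxia. Its log2 fold change of 1.31 (SE 0.35) in normoxia had an edgeR adjusted p of 0.0521 and that of 1.07 (SE 0.35) in hypoxia 0.0704. Its partner Rpl11 was at 9.62 to 11.02 CPM in the embryo, 8.45 and 4.72 CPM in normoxia and 10.9 and 5.47 CPM in hypoxia. Thus the hypoxic libraries overlapped the embryo and the normoxic libraries lay below it.

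**Figure D3:**
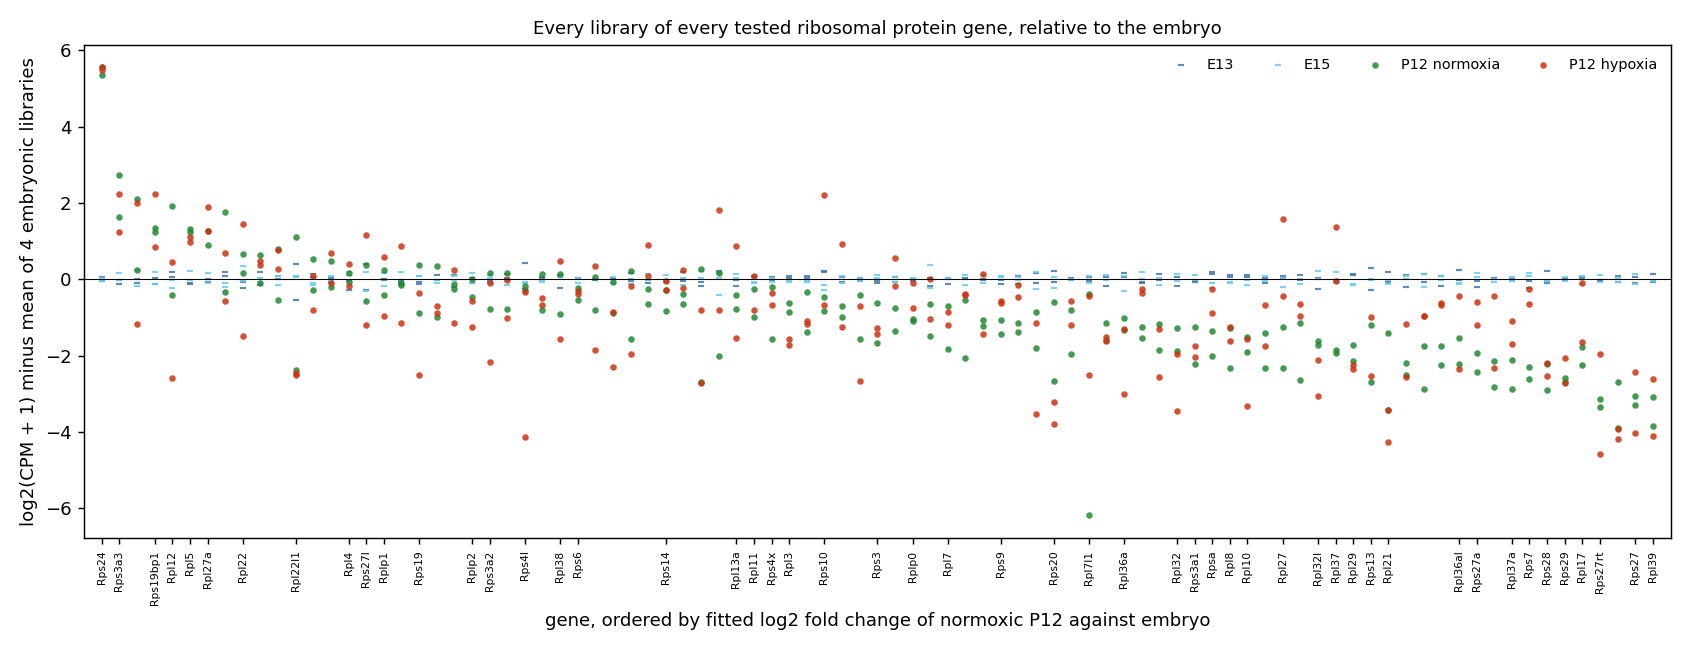
Each tested member (x axis, ordered by the fitted fold change of normoxic P12 cells against the embryo) with its log2(CPM + 1) in every library minus the mean of the 4 embryonic libraries (y axis). Only genes described in the text are labelled. Embryonic libraries (dashes) stay near 0 for nearly all genes, P12 libraries (green normoxia, red hypoxia) lie mostly below 0 and scatter, and Rps24 at the left is the only gene with all 4 P12 points above 5.

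The subunits and the stalk were alike in direction. In normoxia against the embryo the median log2 fold change was -0.87 over 43 large-subunit genes (35 negative) and -1.33 over 31 small-subunit genes (27 negative), and in hypoxia -0.48 (29 negative) and -0.94 (25 negative). Whether the subunits differ was not tested. Of the P stalk, which recruits the elongation factors to the ribosome, Rplp0 was at 112.1 to 118.6 CPM in the embryo, 55.5 and 53.8 CPM in normoxia and 68.1 and 107.3 CPM in hypoxia. Rplp0 missed the threshold in normoxia (log2 fold change -1.08, SE 0.32, edgeR adjusted p = 0.0676). Rplp1 and Rplp2 overlapped the embryo in normoxia, with log2 fold changes of -0.06 and -0.23. In hypoxia, where their log2 fold changes were 0.02 and -0.90, Rplp1 overlapped and both libraries of Rplp2 lay below every embryonic library.

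Rps6, Rpsa, Rps27a and Rpl10 did not pass the test in either P12 comparison. Rps6, the substrate of the S6 kinases, was at 37.2 to 40.8 CPM in the embryo and at 26.9 to 33.7 CPM at P12, with every P12 library below every embryonic one (log2 fold change -0.39, SE 0.41 in normoxia). Rpsa, also known as the laminin receptor, was at 38.0 to 50.6 CPM in the embryo, 10.3 and 16.8 CPM in normoxia and 37.1 and 23.8 CPM in hypoxia. Rps27a, which is made as a fusion with ubiquitin, was at 15.01 to 19.5 CPM in the embryo, 3.78 and 2.38 CPM in normoxia and 6.996 and 11.02 CPM in hypoxia (normoxia adjusted p = 0.0537 by edgeR). In Rpl10, which joins the large subunit late and whose gene is X-linked, the embryo was at 46.1 to 55.3 CPM, normoxia at 12.99 and 17.5 CPM and hypoxia at 16.8 and 4.25 CPM. These 4 genes were lower in all 4 P12 libraries. Rpl13a is known from interferon-induced control of translation, Rpl38 from mouse skeletal patterning, and Rps14 and Rps19 both from inherited or acquired anaemia. In each of them the 4 P12 libraries as a set overlapped the embryo. Both normoxic libraries of Rpl13a and Rps14 nevertheless lay below every embryonic library, as did both hypoxic libraries of Rps19. The log2 fold changes of Rpl13a, Rpl38, Rps14 and Rps19 lay between -0.63 and -0.13 in normoxia and between -1.13 and 0.13 in hypoxia.

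Per kilobase of annotated exon, Rps24, Rpl4, Rps27rt and Rplp1 were among the highest members over all libraries. Rpl4, which lines the tunnel through which the new protein leaves, had a mean level of 155.0 CPM per kilobase in the embryo, 159.8 in normoxia and 168.6 in hypoxia, and its log2 fold change in CPM was 0.05 (SE 0.24) and 0.13 (SE 0.23). Rplp1 was at 75.8, 72.9 and 76.6 CPM per kilobase. The lowest tested members were Rps13, Rpl12 and Rps10, at means of 1.77, 1.91 and 2.30 CPM per kilobase over all libraries. The rows of Rps13 and Rps10 held fewer counts than those of their pseudogenes, described next.

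Ribosomal protein genes have many near-identical processed copies, and how reads matching more than 1 place were counted is not given in the sources used here. The files hold 291 "-ps" rows of ribosomal protein pseudogenes, of which 173 were tested. Their share of the counts was 0.247% to 0.274% in embryonic libraries and 0.0806% to 0.112% in P12 libraries, so these rows were lower at P12 as well. For each 100 member counts without Rps24 there were 54.3 to 58.4 pseudogene counts in the embryo and 49.2 to 64.3 at P12. Of the 61 members that have such rows, 31 had more counts in them than in the gene's own row, up to 11.2 times as many for Rps13, 8.59 for Rpl17 and 8.33 for Rpl36a. The levels of these members are therefore uncertain. The pseudogene rows of Rps24 held 0.0218 times the gene's counts and those of Rps29 0.000552 times. Of the members that fell in hypoxia against the embryo, Rpl3 and Rpl21 had pseudogene rows with 3.09 and 1.87 times the gene's counts. With these rows and further rows outside the naming added and Rps24 included, the P12 to embryo ratio of the share of counts was 0.574.

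Among paralogs and retrocopies, 11 of 15 were tested. Rps3a3, annotated as a processed pseudogene of Rps3a1 at chr13:108670603-108671397, rose in both P12 groups. It was at 11.3 to 14.0 CPM in the embryo, 87.5 and 40.5 CPM in normoxia and 62.2 and 30.8 CPM in hypoxia (log2 fold change 2.37, SE 0.53, edgeR adjusted p = 0.0333, and 1.91, SE 0.53, edgeR adjusted p = 0.0458). The parent Rps3a1 went the other way, from 52.8 to 60.3 CPM in the embryo to 22.7 and 11.1 CPM in normoxia and 12.8 and 15.9 CPM in hypoxia, and fell in hypoxia (log2 fold change -1.95, SE 0.53, edgeR adjusted p = 0.0426). The Rps3a3 row lies inside an intron of Pde4d on the same strand. Pde4d, a phosphodiesterase, was at 1.55 to 9.08 CPM in the embryo and 7.75 to 27.6 CPM at P12 (log2 fold change 1.78 in normoxia, edgeR adjusted p = 0.163). Whether intronic reads of Pde4d enter the Rps3a3 row was not tested. The third copy, Rps3a2, overlapped between P12 and embryo.

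Rps27rt, a retrocopy of Rps27, followed its parent: it was at 56.4 to 64.7 CPM in the embryo, 4.92 and 5.90 CPM in normoxia and 14.5 and 1.52 CPM in hypoxia. Rps27 itself was at 14.7 to 17.8 CPM, then 1.048 and 0.750 CPM, then 2.19 and 0.0370 CPM, the last below the level of 3 counts. Neither passed the test (edgeR adjusted p = 0.0684 and 0.131 in normoxia), and the paralog Rps27l, a target of p53, overlapped between P12 and embryo at 25.6 to 41.9 CPM and 13.3 to 71.5 CPM. Rpl7l1, a nucleolar relative of Rpl7 that takes part in large-subunit assembly, was at 93.5 to 105.2 CPM in the embryo, but at 0.381 and 76.2 CPM in normoxia and 74.0 and 16.6 CPM in hypoxia. Rpl22l1 was at 3.65 to 8.02 CPM in the embryo and at 0.318 and 13.6 CPM in normoxia, with both hypoxic libraries at 0.235 and 0.185 CPM. In these 2 paralogs the normoxic replicates were many-fold apart. Of their main copies, Rpl7 was at 61.2 and 27.3 CPM in normoxia and 43.0 and 54.7 CPM in hypoxia, and Rpl22 at 51.5 and 36.2 CPM in normoxia but 10.9 and 89.97 CPM in hypoxia.

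Rpl36al was at 6.61 to 8.93 CPM in the embryo and 0.639 to 5.14 CPM at P12, and its main copy Rpl36a at 5.50 to 7.98 CPM and 0 to 2.998 CPM. Rpl39, the main copy of the untested Rpl39l, was at 19.2 to 22.4 CPM in the embryo and 0.222 to 2.49 CPM at P12 (log2 fold change -4.35, SE 1.31, edgeR adjusted p = 0.0711 in normoxia), so every P12 library of these 3 genes was lower. Rps4l was at 13.8 to 22.4 CPM in the embryo, 14.4 and 13.5 CPM in normoxia and 12.9 and 0 CPM in hypoxia, while Rps4x was at 44.1 to 49.1 CPM and 15.1 to 40.5 CPM. Rps19bp1, which binds Rps19 and the deacetylase Sirt1, was at 14.3 to 17.9 CPM in the embryo and 28.6 to 76.8 CPM at P12 (log2 fold change 1.35, SE 0.53 and 1.75, SE 0.53, edgeR adjusted p = 0.139 and 0.0579).

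Hypoxia against normoxia at P12 asks whether low oxygen changed these cells, and edgeR called 0 of 89 members, where it called 0.196% of all genes higher and 2.82% lower. With an unadjusted p under 0.05 there were 6 members (6 of 89, where 18.2% of all genes had such a p). Limma-voom called 0 members and 0 genes, and DESeq2 called 13 members higher and 3 lower, where it called 20% of all genes. Without hypoxia replicate 1 edgeR called 7 higher and 3 lower (and 13.5% of all genes), without hypoxia replicate 2 it called 2 higher (7.75% of all genes), and without normoxia replicate 1 it called 1 lower (4.14% of all genes). The median log2 fold change was 0.21 over members and 0 over all genes, with 54 members positive and 35 negative. Libraries did not overlap for 18 members higher in hypoxia (20.2%, against 13.1% of all genes) and 11 lower (12.4%, against 20.1%). With relative log expression scaling these counts were 23 and 5.

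The smallest p-values were those of Rpl37, Rps7 and Rpl27. Rpl37, of the large subunit, was at 5.97 and 6.36 CPM in normoxia and 66.6 and 24.5 CPM in hypoxia, with embryonic libraries of at most 29.1 CPM (log2 fold change 2.89, SE 0.71, edgeR adjusted p = 0.116). Rps7 was at 2.19 and 2.93 CPM in normoxia and 15.2 and 11.4 CPM in hypoxia (log2 fold change 2.37, SE 0.67, edgeR adjusted p = 0.161). Rpl27 was at 4.29 and 10.1 CPM in normoxia and 18.7 and 78.6 CPM in hypoxia (log2 fold change 2.76, SE 0.90, edgeR adjusted p = 0.214). In each the groups did not overlap, yet the hypoxic replicates of Rpl37 and Rpl27 were themselves far apart. Rps24 showed a log2 fold change of 0.05 (SE 0.15) between the P12 groups.

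E15 against E13 asks whether these mRNAs change over the embryonic stages, and the values were nearly the same at both. edgeR called 0 of 89 members and 0% of all genes, and 0 members had an unadjusted p under 0.05, where 3.46% of all genes did. DESeq2 and limma-voom also called 0 members, where they called 1.87% and 4.69% of all genes. The log2 fold changes of the members ran from -0.52 to 0.33, and their median size without sign was 0.11, against 0.34 over all genes. The 3 members of smallest p were Rpl4 (log2 fold change 0.31, SE 0.27), Rpsa (-0.34, SE 0.54) and Rpl5 (0.23, SE 0.42). Libraries did not overlap for 19 members higher (21.3%, against 23.6% of all genes) and 16 lower (18%, against 25.8%). The SE here come from a spread shared with the P12 libraries and exceed the differences between embryonic replicates.

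The replicates agreed closely in the embryo and poorly at P12. The median difference of a member between its 2 replicates, as log2(CPM + 1), was 0.11 at E13, 0.12 at E15, 0.69 in normoxia and 0.89 in hypoxia. Genes of all kinds with a mean of 5 to 100 CPM (10213 genes) had medians of 0.20, 0.18, 0.97 and 1.37, so the members' median was below that of such genes in each group. A difference of more than 1, a doubling, was found in 0 members in both embryonic groups, in 28 members (31.5%) in normoxia, against 48.8% of those genes, and in 42 members (47.2%) in hypoxia, against 57.1%. The widest gaps were those of Rpl7l1 in normoxia (5.80) and Rps4l in hypoxia (3.79). Across the 88 members without Rps24, Pearson's r between libraries was 0.986 to 0.991 within the embryo, 0.641 to 0.806 among P12 libraries and 0.548 to 0.711 between P12 and embryo. These r are across genes, which are not independent replicates, and the points share depth and scaling.

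**Figure D4:**
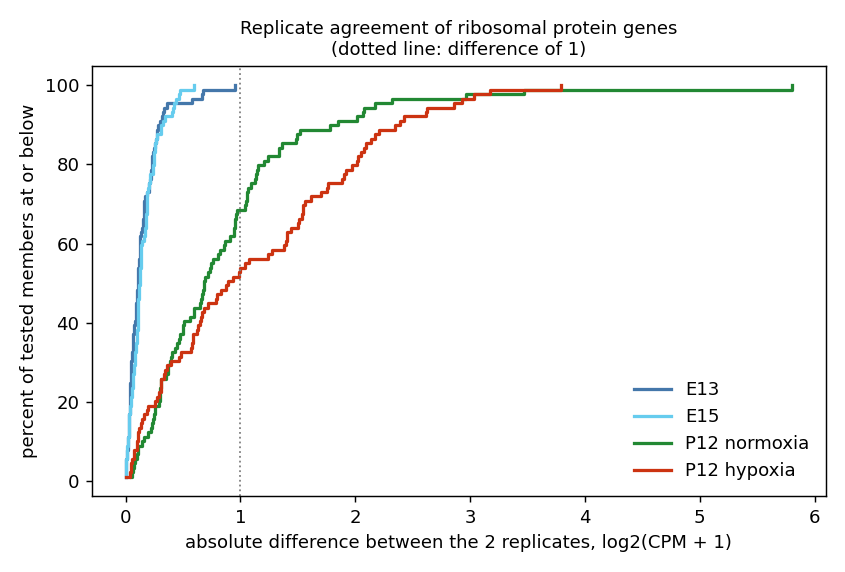
Cumulative percent of the 89 tested members (y axis) whose absolute difference between the 2 replicates, in log2(CPM + 1), is at or below the value on the x axis, with 1 line per group. The E13 and E15 lines (median 0.11 and 0.12) reach 100% before the dotted line at 1, while 31.5% of members in normoxia and 47.2% in hypoxia lie beyond it.

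Exon length differs between members and other genes, with a median of 1684 bases over members and 3341 over all tested genes. Among genes of 1 to 2 kb, the median log2 fold change in normoxia against the embryo was -1.44 for 35 members and -0.25 for all 2815 genes, and among genes of 2 to 4 kb -0.69 for 30 members and 0.10 for all. Under 1 kb it was -0.37 for 18 members and -0.55 for all 3337 genes, so the shortest members were not lower than other short genes. In hypoxia against the embryo the medians of members and all genes were -0.90 and -0.86 at 1 to 2 kb, -0.47 and -0.47 at 2 to 4 kb and -0.77 and -0.73 under 1 kb. Over 4 kb, with 6 members, they were -1.12 and 0.15 in normoxia and -1.25 and -0.12 in hypoxia.

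Among genes that act with ribosomal proteins, calls against the embryo went in both directions, as they did over all genes (12.1% rose and 5.68% fell in normoxia, 13.2% rose and 12.9% fell in hypoxia). Of 33 tested translation factors and other TOP mRNA genes, 5 rose and 3 fell in normoxia, and 3 rose and 4 fell in hypoxia. Eif4g2, a relative of the scaffold of translation initiation, fell by 1.82 (SE 0.19, edgeR adjusted p = 0.00248) in normoxia, from 2791 to 2934 CPM in the embryo to 793.3 and 827.4 CPM. Tpt1, a classical TOP mRNA, rose from 57.3 to 65.4 CPM to 374.4 and 206.7 CPM (log2 fold change 2.27, SE 0.32, edgeR adjusted p = 0.00766). Most of the list went the other way, with 10 genes positive and 23 negative in normoxia. The median of this list was -0.27 in normoxia and -0.43 in hypoxia.

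Of 35 ribosome biogenesis factors, 1 rose and 1 fell in normoxia against the embryo, and 4 rose and 6 fell in hypoxia. Nop56, a core protein of the particles that methylate ribosomal RNA, fell from 128.7 to 142.1 CPM to 9.02 and 22.2 CPM in normoxia (log2 fold change -3.12, SE 0.70, edgeR adjusted p = 0.0343). Of the 13 genes of RNA polymerase I and its factors, which make ribosomal RNA, 1 rose in normoxia: Rrn3, the initiation factor, from 144.2 to 185.1 CPM to 1576 and 732.2 CPM (log2 fold change 2.85, SE 0.35, edgeR adjusted p = 0.00464). In hypoxia Rrn3 rose and 1 other, Taf1c, fell. Of 25 mTORC1, LARP1 and MYC regulators, 4 rose in normoxia, and 5 rose and 4 fell in hypoxia. Rheb, the activator of mTORC1, rose from 79.4 to 97.1 CPM to 666.9 and 446.2 CPM in normoxia (log2 fold change 2.62, SE 0.27, edgeR adjusted p = 0.0026). Of 10 quality control and recycling factors, 1, Ascc3, fell in hypoxia.

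Between hypoxia and normoxia, 2 of the 25 regulators and 2 of the 35 biogenesis factors passed, all lower in hypoxia, where 2.82% of all genes were called lower. In the same comparison 3 of the 9 neuron markers fell: Stmn2, from 29.3 and 40.5 CPM in normoxia to 0.101 and 0.0740 CPM in hypoxia, Snap25, from 85.8 and 87.6 to 0.605 and 0.333 CPM, and Syp, from 27.3 and 10.8 to 0 and 0.0370 CPM. Their edgeR adjusted p was 0.0183, 0.0195 and 0.0241. Of the neuron markers 5 were negative and 3 positive. The positive ones were Map2 (log2 fold change 1.08), Dcx (1.04) and Tubb3 (0.59), which did not pass the test, and Slc17a7 was at 0 CPM in all P12 libraries. The median log2 fold change of the neuron list was -4.01. Its summed level was 419 to 574 CPM in normoxia and 267 to 686 CPM in hypoxia, and its part in the results of these lists was not tested. Larp1, which binds the TOP motif, was at 37.8 and 19.7 CPM in normoxia and 0.505 and 1.63 CPM in hypoxia (log2 fold change -4.75, SE 0.79, edgeR adjusted p = 0.0421), against 66.3 to 89.8 CPM in the embryo. Rps6kb2, an S6 kinase, was at 24.1 and 47.9 CPM in normoxia and 0.101 and 0.222 CPM in hypoxia (log2 fold change -7.78, SE 0.87, edgeR adjusted p = 0.0228). Both hypoxic values of Rps6kb2 were near the limit of 3 counts. The biogenesis factors Rrp12 and Ddx51 were also at 0.0336 to 0.148 CPM in hypoxia and at 11.3 to 49.6 CPM in normoxia. The lists were chosen with earlier results known.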

How the data were processed

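Gene counts of 8 libraries (4 groups of 2) were used as the authors deposited them: raw counts per gene symbol, 1 file per library, with no normalization per the file headers and values. Cutadapt, STAR and Subread (no versions) and the build GRCm38 are named in the submitters' processing notes. The annotation, the strand setting and the handling of multi-mapping reads are not given in the sources used here. Each file held 55487 rows, of which 1980 named no gene (0.205% to 0.266% of counts) and were left out.

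Tests were run in R (4.3.3) with edgeR (version 4.0.16) and, as alternatives, DESeq2 (version 1.42.0) and limma (version 3.58.1), and figures were drawn with matplotlib 3.10.9 in Python 3.11.15. TMM scaling was used, filterByExpr (minimum count 10, minimum total 15) kept 19936 genes, and edgeR's quasi-likelihood fit to the 8 libraries in 4 groups (4 residual degrees of freedom) gave two-sided tests, adjusted by Benjamini-Hochberg with a threshold of 0.05. CPM are TMM-scaled, and differences between replicates use log2(CPM + 1). "Embryo" stands for E13 and E15 averaged, a control that both P12 comparisons share. Members, lists and the rule for naming genes (smallest p per comparison, highest and lowest level per kilobase, paralogs, members with known roles) were chosen with earlier results of these data known. Coordinates, exon lengths and overlaps are from GENCODE M21 (GRCm38), in which all 93 members were found, and start windows from RefSeq (GRCm38.p6). Groups are called not overlapping when every library of one lies above every library of the other. Some genes that the rule takes are not reported here. The pipeline was tested on simulated data. Alternatives were relative log expression scaling, TMM without ribosomal protein, mitochondrial and haemoglobin genes, no low-count filter, DESeq2, limma-voom with sample quality weights, only the compared groups, a replicate block and leaving out each library.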

Additional observations from a re-analysis of the deposited data

How the results depend on the processing

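The rise of Rps24 against the embryo passed the threshold in all 15 alternatives in both P12 groups, with log2 fold changes of 5.26 to 5.59 in normoxia and 5.48 to 5.76 in hypoxia and edgeR, limma-voom or DESeq2 adjusted p of at most 0.00277 and 0.0025. In normoxia the calls of Rps3a3, Rps29, Rps7, Rps9 and Rps28 were also followed. For hypoxia those of Rps3a3, Rpl27a, Rps20, Rpl29, Rps29 and Rps28 were followed. Each of these missed the threshold in 7 to 9 of 15 alternatives, without turning direction. The remaining member calls named above were not followed gene by gene. Member calls in normoxia against the embryo (10) became 2 with no low-count filter (8.05% of all genes), 39 with DESeq2 (36.4%), 36 with only the compared groups (34.4%) and 1 with the replicate block (8.55%), and 1 to 36 with 1 library left out, the highest count without hypoxia replicate 1 and, with 32, without hypoxia replicate 2, the count without normoxia replicate 1 being 2. Calls in hypoxia against the embryo (15) became 3 with no filter (12.7% of all genes), 28 with DESeq2 (45.1% of all genes), 2 with limma-voom (12%) and 1 with the replicate block (14.4%), and 1 to 28 with 1 library left out. Calls between hypoxia and normoxia (0) became 16 with DESeq2 (20% of all genes) and 0 to 10 with 1 library left out. Leaving out 1 library leaves its group with a lone library that is assumed to vary like the others. Beyond the number of libraries and genes in a fit, the cause of these changes was not tested.

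The member median between hypoxia and normoxia (0.21) was 0.38 with relative log expression scaling, 0.39 with DESeq2, 0.045 with limma-voom and 0.038 to 0.608 with 1 library left out. In normoxia against the embryo (-1.07) it was -1.17 with no filter and -1.26 to -0.905 with 1 library left out. In hypoxia against the embryo (-0.73) it was -0.52 with relative log expression scaling, -0.52 with DESeq2, -0.86 with limma-voom, -0.857 with the replicate block and -0.903 to -0.654 with 1 library left out; with no filter (-0.80) and with limma-voom it lay above the median of all genes (-0.99 and -1.16). The P12 to embryo ratio of the share of counts (0.701) was 0.574 with pseudogene rows and further rows outside the naming, 0.862 without the 100 highest other genes and 0.343 without Rps24. Members with all P12 libraries below the embryo (44) were 36 with relative log expression scaling and 71 when scaled by library size alone, settings added after the data had been seen. Results for E15 against E13 kept 0 calls in every alternative. Across genes, libraries of equal replicate number did not deviate together (correlations -0.044 to 0.014). With the P12 replicates far apart, this cannot show whether such libraries share an animal, litter or day, and no label says that they do.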
